A study of Mus musculus with 4 samples.

Results

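The genes of vascular endothelial growth factor (VEGF) signalling examined here were 3 receptor genes (Kdr, Flt1 and Flt4), 2 neuropilin genes (Nrp1 and Nrp2) and 4 ligand genes (Vegfa, Vegfb, Vegfc and Pgf). These 9 genes, among 21755 protein-coding genes, were chosen by name. Their regions were every H3K27me3 peak that overlapped the gene or lay at most 10 kb from it, together with every row of the annotated tables that carried the gene's symbol. This gave 6 peaks of 10223 in the library of 500 erythro-myeloid progenitors (EMPs) and 17 of 15282 in the library of 15000 EMPs. Of the 17, 13 lay in a gene or within 10 kb, and 4 were assigned to Flt1 from farther away.

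H3K27me3, the repressive mark that the Polycomb enzyme Ezh2 places on histone H3, was profiled by CUT&RUN, in which an antibody directs a nuclease to the mark and the released DNA is sequenced. EMPs, the yolk sac progenitors of early red and myeloid blood cells, were sorted by the surface proteins KIT, CD41 and CD16/32 from E10.5 mouse embryos of the C57BL/6 strain. The genotype label was Ezh2fl/fl with Tie2-Cre+/+, followed by the words wild type, for every library, and the cells were taken as wild type, the name the study gives them. Tie2-Cre is active in endothelium and in the blood cells that arise from it. There was 1 H3K27me3 library and 1 IgG background library for each cell number, so that no value below has a replicate check and no test between the cell numbers was possible. The cell numbers also differed in PCR cycles (17 for 500 EMPs and 16 for 15000 EMPs), in read length (76 and 59 bp) and in instrument. By the study's methods they differed in the p-value threshold for peaks too (0.01 and 0.05). The study's reporting summary also gives the library of 500 EMPs fewer reads and a much lower alignment rate than that of 15000 EMPs. These differences and the cell number cannot be told apart. The peak files gave positions without heights or read counts. The depth at a gene could not be read from them, and a missing peak was a peak not called at the depth of that library.

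VEGF ligands are secreted proteins that bind receptor tyrosine kinases on endothelial cells and their precursors. Vegfa signals mainly through Kdr (also called Flk1), the receptor that marks the mesoderm from which blood and endothelium arise. Flt1 binds Vegfa, Vegfb and Pgf and often acts as a decoy, whereas Flt4 binds Vegfc and is best known in lymphatic endothelium. Neuropilins are co-receptors that also bind class 3 semaphorins, the guidance signals that use plexins as partners. As blood progenitors leave hemogenic endothelium, endothelial genes are switched off, and Polycomb is one of the systems that hold genes in an off state.

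The sequences below show where the mark lay at each marked gene, beside the start of Vegfa, which had no peak. Each was read from the GRCm38 assembly (mm10) and is given 5′ to 3′ on the strand of its gene, with each CpG in capitals, since Polycomb is known to gather at CpG-rich DNA. The peak shown was the intron peak nearest the start at Flt1 and Flt4, also the widest of their intron peaks with 500 EMPs. The upstream piece of Flt1, of 1452 bp, was wider and is not shown. At Nrp2, Kdr and Nrp1 the widest intron peak is shown, and at Pgf the upstream peak. Each was taken from the library of 500 EMPs where that had one, and where a peak was longer than 300 bp its central 300 bp are given. All stretches except those of Pgf and Vegfa lay in the first intron of their gene, and none touched an exon.
Flt1, intron piece called with 500 EMPs, minus strand, chr5:147723873-147724143: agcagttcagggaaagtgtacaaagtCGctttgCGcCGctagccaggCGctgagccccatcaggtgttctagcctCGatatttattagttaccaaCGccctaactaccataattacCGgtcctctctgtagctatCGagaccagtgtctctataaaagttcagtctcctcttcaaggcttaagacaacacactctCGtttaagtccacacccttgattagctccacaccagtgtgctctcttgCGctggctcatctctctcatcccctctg
Flt4, intron piece called with 500 EMPs, plus strand, chr11:49610376-49610675: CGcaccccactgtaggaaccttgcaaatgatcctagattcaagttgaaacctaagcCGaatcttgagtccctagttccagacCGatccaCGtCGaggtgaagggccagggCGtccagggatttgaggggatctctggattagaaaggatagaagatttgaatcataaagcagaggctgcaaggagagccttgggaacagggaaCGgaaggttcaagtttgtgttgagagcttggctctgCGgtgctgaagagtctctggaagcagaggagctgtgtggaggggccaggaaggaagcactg
Nrp2, intron piece called with 500 EMPs, plus strand, chr1:62705027-62705326: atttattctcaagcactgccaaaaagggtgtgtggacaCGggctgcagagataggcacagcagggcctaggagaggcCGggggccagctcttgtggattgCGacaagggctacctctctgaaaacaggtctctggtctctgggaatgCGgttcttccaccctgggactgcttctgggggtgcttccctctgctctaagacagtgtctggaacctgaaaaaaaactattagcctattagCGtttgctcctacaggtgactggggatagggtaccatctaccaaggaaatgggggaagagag
Kdr, peak called with 15000 EMPs, minus strand, chr5:75977552-75977825: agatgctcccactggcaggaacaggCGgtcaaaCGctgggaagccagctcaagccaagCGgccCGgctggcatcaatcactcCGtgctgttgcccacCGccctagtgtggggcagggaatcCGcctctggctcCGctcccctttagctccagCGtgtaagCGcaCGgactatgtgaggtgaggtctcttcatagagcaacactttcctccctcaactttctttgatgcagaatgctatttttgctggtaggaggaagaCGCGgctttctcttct
Nrp1, intron peak called with 15000 EMPs, plus strand, chr8:128360794-128361093: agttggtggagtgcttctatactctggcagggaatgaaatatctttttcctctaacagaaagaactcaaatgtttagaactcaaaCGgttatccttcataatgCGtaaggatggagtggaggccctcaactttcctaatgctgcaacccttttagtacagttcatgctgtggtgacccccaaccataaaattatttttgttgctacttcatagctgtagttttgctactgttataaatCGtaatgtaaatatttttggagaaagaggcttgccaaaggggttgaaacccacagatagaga
Pgf, upstream peak called with 15000 EMPs, minus strand, chr12:85181770-85182069: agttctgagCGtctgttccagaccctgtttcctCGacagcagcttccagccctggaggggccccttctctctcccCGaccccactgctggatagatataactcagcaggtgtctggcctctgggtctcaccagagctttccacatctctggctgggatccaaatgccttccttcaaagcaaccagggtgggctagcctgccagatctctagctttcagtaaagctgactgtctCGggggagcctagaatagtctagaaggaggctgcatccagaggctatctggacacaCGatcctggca
Vegfa, bases before the gene start with no peak, minus strand, chr17:46032370-46032669: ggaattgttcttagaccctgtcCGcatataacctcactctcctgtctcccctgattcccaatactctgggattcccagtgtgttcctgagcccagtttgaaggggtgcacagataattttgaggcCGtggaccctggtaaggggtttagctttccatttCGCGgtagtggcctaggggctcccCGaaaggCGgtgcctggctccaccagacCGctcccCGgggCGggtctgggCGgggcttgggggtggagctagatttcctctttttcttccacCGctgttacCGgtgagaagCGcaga
The 13 CpGs of the Kdr peak and the 10 of the Flt1 piece were more than the median of 4 in the central 300 bp of all peaks of at least that width, in either library. The narrower intron piece of Flt1, of 269 bp, held 4. The Flt4 stretch held 8, the Nrp2 and Pgf stretches 5 each, and the Nrp1 stretch, of which 46.3% was repeat-masked, 3. The unmarked bases before Vegfa held 13, against a median of 9 in the 300 bp before all protein-coding gene starts. A CpG (the letters CG, which read alike on both strands) was present in 93.9% of those upstream stretches and in 95.1% and 94.6% of the peak centres with 500 and 15000 EMPs, so its presence alone separates nothing.

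All receptor and neuropilin genes had a peak with 15000 EMPs, and some of them with 500 EMPs. With 15000 EMPs, 3 of 3 receptor genes, 2 of 2 neuropilin genes and 1 of 4 ligand genes had a peak in the gene or within 10 kb. With 500 EMPs these numbers were 2 of 3 (Flt1 and Flt4), 1 of 2 (Nrp2) and 0 of 4, Kdr and Nrp1 having no peak. In all, 6 of the 9 genes were marked with 15000 EMPs, where the same rule marked 25.2% of protein-coding genes, and 3 of 9 with 500 EMPs, where it marked 15.2%. With peaks of 500 bp or more only, the count with 500 EMPs fell to 1 of 9, since Flt4 and Nrp2 had narrower peaks alone. The share of all protein-coding genes under this filter was not computed, so 1 of 9 cannot be set against a background. The ligand count was at the background share, and the difference between receptors and ligands was not tested. The 3 genes marked with 500 EMPs were all marked with 15000 EMPs. Such overlap was general: of 2177 protein-coding genes with a peak within 3 kb of the start with 500 EMPs, 2155 had one with 15000 EMPs. The ligand genes spanned 5179 bp (Vegfb), 11156 bp (Pgf), 15377 bp (Vegfa) and 109491 bp (Vegfc), and the receptor and neuropilin genes 43477 to 164408 bp; the part of gene length in these counts was not tested. In a fixed window reaching 3 kb to either side of the gene start, the same genes had a peak: 6 of 9 with 15000 EMPs, against 17.1% of protein-coding genes, and 3 of 9 with 500 EMPs, against 10% (2177 of 21755).

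**Figure D1:**
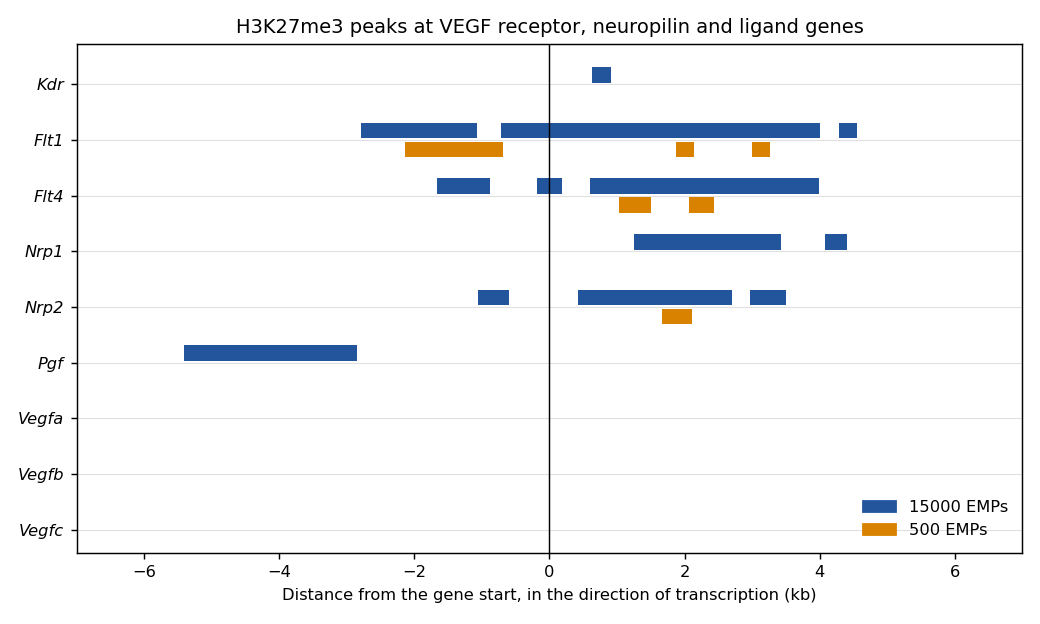
H3K27me3 peaks of the library of 15000 EMPs (blue) and of 500 EMPs (orange) at the 9 genes, by distance from the gene start in kb, with transcription running to the right. Peaks gathered at the starts of the receptor and neuropilin genes, Pgf had 1 upstream peak, and Vegfa, Vegfb and Vegfc had none.

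Of the receptors, Flt1 had the widest mark. Flt1 (ENSMUSG00000029648) lies on the minus strand of chromosome 5, from 147561604 to 147726011. With 15000 EMPs, a peak of 4720 bp (147722007 to 147726726) ran from 715 bp before the gene start to 4004 bp after it, across the first exon and into the first intron. It was wider than or as wide as 93.6% of the peaks of its list. A second peak of 1711 bp (147727087 to 147728797) lay upstream, and a narrow one of 256 bp (147721466 to 147721721) lay in the same intron.

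With 500 EMPs, the mark at Flt1 was called in 3 pieces. The upstream piece of 1452 bp (147726697 to 147728148) was followed by intron pieces of 271 bp, whose sequence is given above, and of 269 bp (147722753 to 147723021). The gene start lay in an uncovered stretch of 2553 bp between the upstream and the intron pieces. The upstream piece bridged the gap between the first and the second 15000-EMP peak, so that 360 bp of it had no counterpart. The other 5 peaks of the 500-EMP list lay wholly under a 15000-EMP peak.

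A further 4 peaks of the 15000-EMP list were assigned to Flt1 in the annotated table from 22161 to 26529 bp upstream. They measured 511, 1173, 596 and 1191 bp, and the nearest of them lay wholly inside Gm43156, a long noncoding RNA gene on the opposite strand. They lay outside the 10 kb limit and were counted among the 17 peaks but not among those in or near a gene. With 500 EMPs no peak was called there.

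Flt4 had a similar arrangement over a shorter stretch. Flt4 (ENSMUSG00000020357) lies on the plus strand of chromosome 11, from 49609263 to 49652739. With 15000 EMPs, peaks of 781 bp (49607602 to 49608382), 380 bp (49609074 to 49609453) and 3387 bp (49609867 to 49613253) lay before the start, across it and in the first intron. Repeat-masked sequence made up 52.4% of the 781-bp peak. With 500 EMPs, only the intron was marked, by pieces of 474 bp (49610289 to 49610762) and 369 bp (49611328 to 49611696), both under the 3387-bp peak.

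Kdr carried the smallest mark of the receptors. Kdr (ENSMUSG00000062960) lies on the minus strand of chromosome 5, from 75932827 to 75978458. With 15000 EMPs it had 1 peak of 274 bp in the first intron, at 633 to 906 bp after the gene start. Only 15.5% of the peaks of that list were as narrow or narrower. With 500 EMPs, the nearest peak lay 778678 bp from the gene. The Kdr call thus rested on 1 narrow peak, and it was lost when peaks under 500 bp were left out. The study's methods give the library of that peak the more lenient threshold.

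The neuropilin genes were marked in the first intron. Nrp2 (ENSMUSG00000025969, chromosome 1, plus strand, 62703285 to 62818695) carried 3 peaks with 15000 EMPs, of 466 bp (62702226 to 62702691), of 2277 bp (62703703 to 62705979) and of 527 bp (62706253 to 62706779). The start of the gene record lay in an uncovered stretch of 1011 bp between the first and the second of these, and the principal transcript began at the base next to the second. The second peak held 73 bp of coding sequence, and 2 of the 13 peaks of the list touched coding bases at all, the other being the 4720-bp peak of Flt1 with 64 bp. With 500 EMPs, Nrp2 had 1 peak of 443 bp (62704955 to 62705397) under the 2277-bp peak.

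Nrp1 (ENSMUSG00000025810, chromosome 8, plus strand, 128358604 to 128503363) was marked with 15000 EMPs, by a peak of 2179 bp (128359854 to 128362032) and, beyond it, another of 323 bp (128362683 to 128363005), and had no peak with 500 EMPs. These peaks began 1250 bp after the start of the gene record, which belongs to a noncoding transcript, and 569 bases lay between the start of the only protein-coding transcript and the wider peak. The annotated table gave both peaks to Mir1903, a microRNA gene at 128359241 to 128359320, and not to Nrp1 in which they lie. The wider peak was listed at 534 bp from Mir1903. By symbol, therefore, Nrp1 was absent from the genes within the 3 kb distance limit of the study, and 5 of the 9 genes were present with 15000 EMPs, against 16.9% of protein-coding genes. With 500 EMPs 3 of 9 were present, against 9.86%. Such rows were not rare. Of the 6891 peaks of the 15000-EMP list that lay inside exactly 1 protein-coding gene, 1987 had rows that named only another gene (28.8%, 95% Wilson interval 27.8 to 29.9%).

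Of the 4 ligand genes, Pgf alone had a peak, about what the background share gives for 4 genes. Pgf (placental growth factor, ENSMUSG00000004791) lies on the minus strand of chromosome 12, from 85166635 to 85177790. With 15000 EMPs it had 1 peak of 2549 bp (85180645 to 85183193), which lay wholly upstream, at 2855 to 5403 bp before the gene start. With 500 EMPs the nearest peak lay 291779 bp away. Within the 3 kb limit the Pgf peak counted by 146 bp, and from the start of the principal transcript it lay 3348 bp away.

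No peak lay in or within 10 kb of Vegfa (ENSMUSG00000023951, chromosome 17, minus strand, 46016993 to 46032369), the main ligand of Kdr. The nearest lay 130343 bp away with 15000 EMPs and 143082 bp away with 500 EMPs. Vegfc (ENSMUSG00000031520, chromosome 8, plus strand, 54077606 to 54187096) lay in a stretch of 5701954 bp without a peak with 15000 EMPs and of 8469576 bp with 500 EMPs. At Vegfb (ENSMUSG00000024962, chromosome 19, minus strand, 6982473 to 6987651) the nearest peaks lay 46188 bp away with 15000 EMPs and 46901 bp away with 500 EMPs, over and beside the potassium channel gene Kcnk4.

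The limit of 10 kb fell in a wide gap. The marked gene whose nearest peak lay farthest was Pgf, and the next peaks beyond the limit were those at 15199 and 15961 bp from Pgf, both over the gene Rps6kl1, and then those upstream of Flt1.

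Peaks lay near the gene start, though not in the same place at each gene. All peaks in or within 10 kb of the 9 genes lay within 5403 bp of the gene start with 15000 EMPs and within 3258 bp with 500 EMPs. Within 3 kb of the start lay 11 of 13 and 6 of 6 of them, against 40.1% and 40.8% of all pairs of a peak and a protein-coding gene within 10 kb. With 15000 EMPs, 8 of 13 peaks touched the first intron, 4 lay wholly outside the gene, and none reached a later intron. Over all protein-coding genes, 31.4% of pairs of a peak and a gene within 10 kb of it touched the first intron, 39.4% had the peak wholly outside the gene and 20.6% reached a later intron. With 500 EMPs, 5 of 6 peaks touched the first intron, each lying wholly in it, and 1 lay outside the gene. Of all such pairs, 24.0% touched the first intron and 46.5% had the peak outside. The peaks of 1 gene are not independent, and no test was made of these shares. Flt1 and Flt4 had a peak across the start with 15000 EMPs, Kdr and Nrp1 had intron peaks alone, and Pgf had an upstream peak alone. The start itself was covered in 2 of 9 genes (Flt1 and Flt4) with 15000 EMPs, against 8.70% of protein-coding genes, and in 0 of 9 with 500 EMPs, against 1.42%. When peaks within 3 kb of each other were joined, the start of Nrp2 was covered as well with 15000 EMPs, and that of Flt1 with 500 EMPs.

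The genes were then ordered by the length covered in the 6001-bp window at the start (3 kb to either side). With 15000 EMPs, Flt1 was covered over 5427 bp (90.4%), Flt4 over 3558 bp (59.3%), Nrp2 over 2776 bp (46.3%), Nrp1 over 1751 bp (29.2%), Kdr over 274 bp (4.57%) and Pgf over 146 bp (2.43%). Among the 3728 protein-coding genes with any coverage the median was 2743 bp, so that Nrp2 lay close to it, Flt1 and Flt4 above it and the others below it. More of the window was covered in 357 genes than in Flt1 and in 3574 genes than in Kdr. With 500 EMPs the order of the covered genes was the same, with 1734 bp at Flt1, 843 bp at Flt4 and 443 bp at Nrp2, beside a median of 789 bp over 2177 covered genes. The 3 genes without a peak at 500 EMPs but with one at 15000 EMPs were thus the 3 with the least coverage at 15000 EMPs. The order depended on the window: within 1 kb of the start with 15000 EMPs, Nrp2 (990 bp) passed Flt4 (897 bp) and Kdr (274 bp) passed Nrp1 (0 bp), and with 500 EMPs Flt1 alone was covered. Within 10 kb of the start with 15000 EMPs, Pgf (2549 bp) passed Nrp1 (2502 bp). With 1 library per cell number, the spread behind these lengths is unknown.

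**Figure D2:**
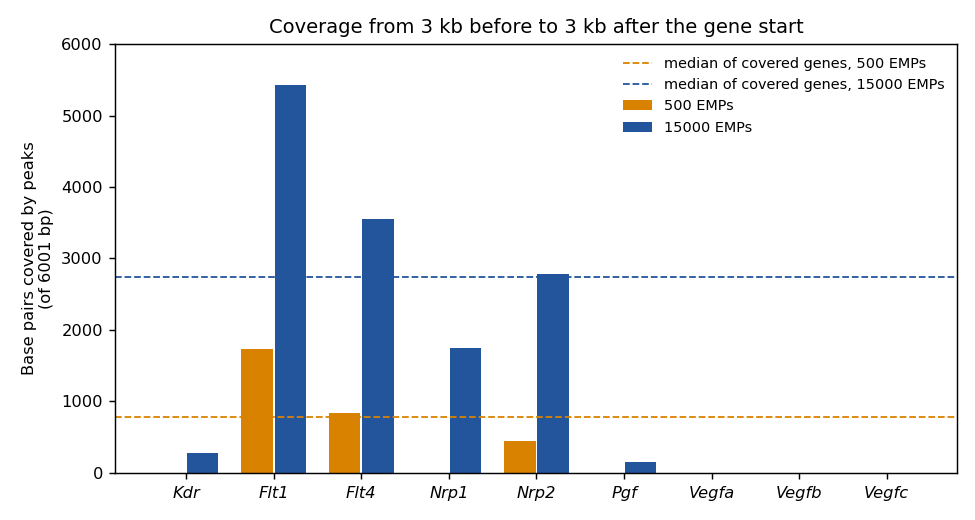
Base pairs covered by H3K27me3 peaks, of 6001 bp, in the 3 kb on either side of the gene start, with 500 EMPs (orange bars) and 15000 EMPs (blue bars), 1 library each and hence no error bars. Dashed lines give the median over protein-coding genes with any coverage, 789 bp and 2743 bp, and Flt1 and Flt4 lay above both.

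The gain in covered length from 500 to 15000 EMPs was 3.13-fold at Flt1, 4.22-fold at Flt4 and 6.27-fold at Nrp2. Across the 2155 protein-coding genes covered in both libraries the median was 4.26-fold, with quartiles of 2.55 and 8.27, and all 3 genes lay between these quartiles. All 6 peaks of the 500-EMP list at these genes shared at least 1 bp with a 15000-EMP peak (95% Wilson interval 61 to 100%, counting error only), against 91.2% of that whole list. In reverse, 4 of 13 did (30.8%, 12.7 to 57.6%), against 32.2% of the whole list. By length, 89% of the bases in the 500-EMP peaks at these genes were shared, against 93% of that whole list. With 15000 EMPs the shared bases were 14.7%, against 23.1%. Whether recovery at these genes differed from that of the lists was not tested, and so few peaks could not show it.

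Among the 9 genes, CpG-rich starts occurred with and without the mark. A start was called CpG-rich where the 500 bp on either side of it had a GC content above 50% and a ratio of observed to expected CpGs above 0.6. By this definition 44.8% of protein-coding starts were CpG-rich, and of these 21.8% had a peak within 3 kb with 15000 EMPs and 13.7% with 500 EMPs. Of the other starts, 13.3% and 6.99% did, so that across all genes CpG-rich starts were marked more often. The unmarked starts of Vegfa, Vegfb and Vegfc were all CpG-rich, with ratios of 0.696, 0.708 and 0.868. The ratios of the genes marked in both libraries were 0.827 at Nrp2, 0.811 at Flt1 and 0.805 at Flt4, all below that of Vegfc. At the start of its principal transcript, 1013 bp into the gene, Vegfa reached 0.911.

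Kdr had a ratio of 0.665. Nrp1 and Pgf, marked with 15000 EMPs alone, fell short at 0.577 and 0.425, although at the principal transcript Nrp1 reached 0.713 (Pgf, 0.456, did not pass). In all, 7 of the 9 starts were CpG-rich, and 4 of these 7 were marked with 15000 EMPs. In the peaks themselves the ratio ran from 0.0629 in the 323-bp peak of Nrp1 to 0.895 in the 380-bp peak across the start of Flt4.

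**Figure D3:**
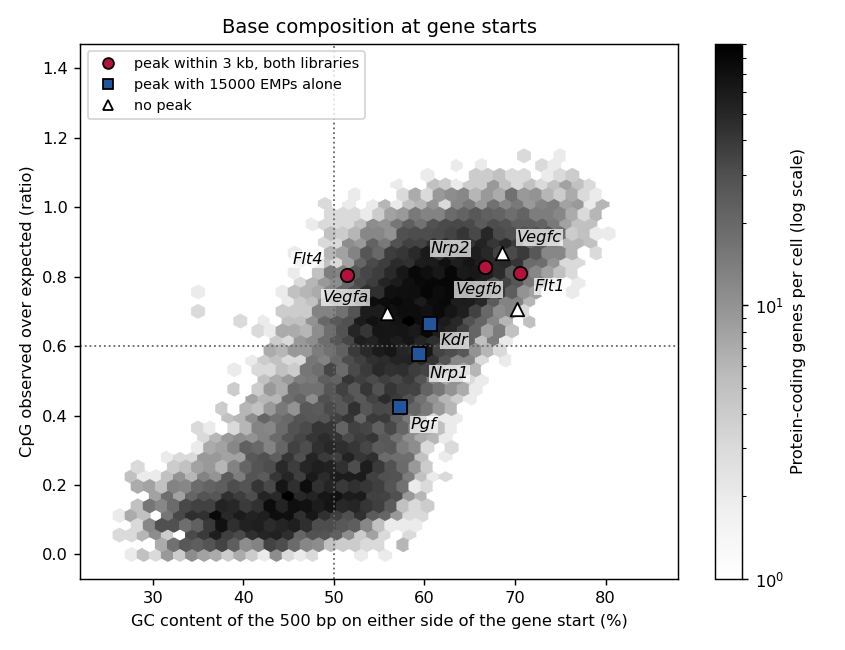
GC content (%) against the ratio of observed to expected CpGs in the 500 bp on either side of the start of each protein-coding gene, with grey cells shaded by the number of genes on a log scale and dotted lines at 50% and 0.6. Red circles are genes with a peak within 3 kb in both libraries, blue squares those with a peak with 15000 EMPs alone, and white triangles (Vegfa, Vegfb, Vegfc) those without a peak, which lay among the CpG-rich starts.

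The wider pathway was described from lists of 61 other genes. Of these, 21 had a peak in the gene or within 10 kb with 15000 EMPs (34.4%, against 25.2% of protein-coding genes) and 11 with 500 EMPs (18.0%, against 15.2%). All 11 were among the 21. Across protein-coding genes, 2155 of the 2177 with a peak within 3 kb of the start with 500 EMPs also had one with 15000 EMPs. Vegfd, another secreted ligand of the receptors, was unmarked in both libraries.

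Of 7 class 3 semaphorins, the other ligands of the neuropilins, 4 were marked with 15000 EMPs (Sema3b, Sema3c, Sema3d and Sema3f) and 2 with 500 EMPs (Sema3c and Sema3f), beside 25.2% and 15.2% of protein-coding genes. The start window of Sema3f was covered over 1227 bp with 500 EMPs and 2931 bp with 15000 EMPs, and that of Sema3c over 274 bp and 2773 bp. The Sema3c pieces with 500 EMPs were of the smallest width in that list, 137 bp. Of 5 plexins, Plxna4 was marked in both libraries, over 1599 bp of the start window with 500 EMPs and 5218 bp with 15000 EMPs, and Plxna2 with 15000 EMPs (381 bp). Plxnd1, a semaphorin receptor of endothelium, was unmarked. The plexin counts of 2 of 5 and 1 of 5 stand beside the same shares of all genes.

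Of the angiopoietin and Tie genes, the other receptor system of endothelium, 0 of 5 were marked in either library, against 25.2% (15000 EMPs) and 15.2% (500 EMPs) of protein-coding genes, so that few or none of 5 genes would be marked at the background share. Tek, which encodes the Tie2 receptor, lay 2872331 bp from the nearest peak with 15000 EMPs, and Tie1 lay 249633 bp away.

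Of 12 genes for the nearest relatives of VEGF receptors and ligands, 7 were marked with 15000 EMPs and 4 (Pdgfa, Pdgfra, Pdgfrb and Flt3) with 500 EMPs, beside 25.2% and 15.2% of protein-coding genes. Pdgfra and Kit neighbour Kdr on chromosome 5. Pdgfra, a receptor of mesenchyme, was covered over its whole start window of 6001 bp with 15000 EMPs and over 1532 bp with 500 EMPs. Kit, the stem cell factor receptor used to sort EMPs, was unmarked, and its nearest peak lay 320829 bp away with 15000 EMPs. In this row of 3 related receptor genes, with 376700 bp between Pdgfra and Kit and 276104 bp between Kit and Kdr, coverage at the start with 15000 EMPs was thus 6001, 0 and 274 bp. Flt3, a cytokine receptor gene that lies 161114 bp from Flt1, was covered over 3753 bp with 15000 EMPs and 349 bp with 500 EMPs. Pdgfa was covered over 5133 bp and 2729 bp in the same order, while the peaks counted for Pdgfrb lay 6761 and 7497 bp from the gene with 15000 and 500 EMPs, none in its start window.

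Genes that carry the VEGF signal inside the cell were marked at about the background share, 6 of 23 with 15000 EMPs and 3 of 23 with 500 EMPs. Those marked in both libraries, with the start window covered as given for 15000 and then 500 EMPs, were Hspb1, a small heat shock protein downstream of Kdr (3599 bp and 1492 bp), Prkcb, a protein kinase C gene (2283 bp and 212 bp), and Shb, an adaptor that binds Kdr (678 bp and 0 bp, its 500-EMP peak lying in the gene outside the window). Of 8 genes of hypoxia control, which sets the level of Vegfa, Epas1 was marked in both libraries (2583 bp and 594 bp) and Egln1 with 15000 EMPs (572 bp). Hif1a, Hif3a, Arnt, Vhl, Egln2 and Egln3 were marked in neither. These counts, 2 of 8 with 15000 EMPs and 1 of 8 with 500 EMPs, were near the shares of all protein-coding genes (25.2% and 15.2%).

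**Figure D4:**
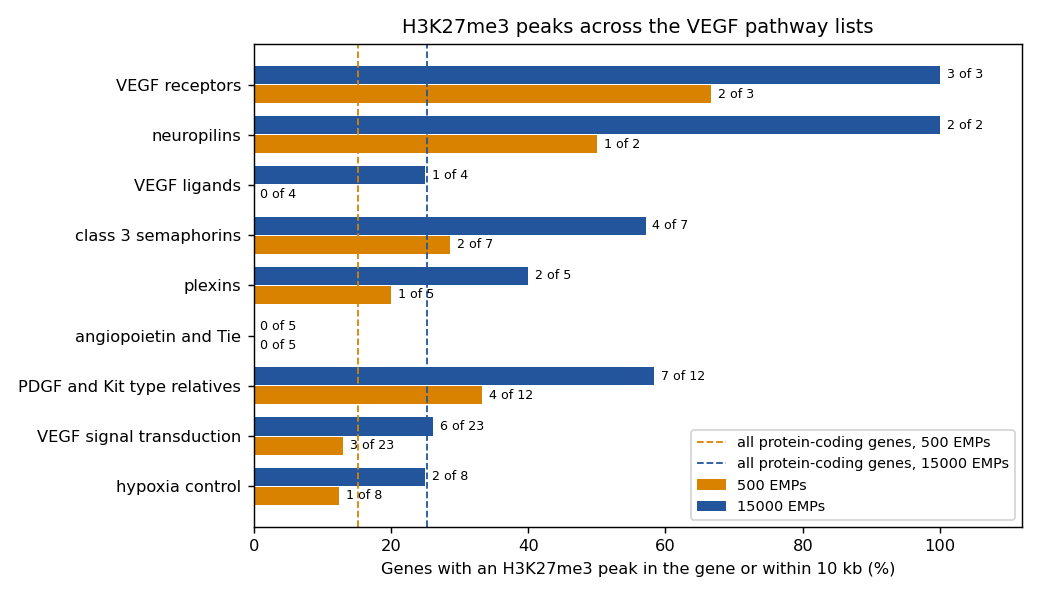
Share of genes (%) in each list with an H3K27me3 peak in the gene or within 10 kb, with 500 EMPs (orange bars) and 15000 EMPs (blue bars) and the number of genes beside each bar. Dashed lines give the share of all protein-coding genes, 15.2% and 25.2%, and the angiopoietin and Tie list had no marked gene.

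The mark at markers of the cells was read from lists as well, although H3K27me3 does not measure expression. Of 11 EMP markers, Gata2 alone had a peak within 3 kb of its start, with 15000 EMPs only, against 17.1% of protein-coding genes, and Fcgr3 had peaks at least 4056 bp from the gene in both libraries. Of 7 endothelial markers, Sox17 had peaks within 3 kb of its start in both libraries, and Pecam1 had 1 peak of 137 bp with 500 EMPs alone. In the gene or within 10 kb, 4 of 5 mesenchymal markers, 2 of 5 yolk sac endoderm markers (Foxa2 and Sox17) and 0 of 3 macrophage markers were marked in both libraries, against 25.2% (15000 EMPs) and 15.2% (500 EMPs) of protein-coding genes. In lists of this size a difference of 1 gene moves the share widely, and nothing particular is read from them. Whether cells other than EMPs were in the sorted samples was not tested.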

How the data were processed

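Per the labels and the study's methods, H3K27me3 and IgG CUT&RUN libraries were made from 500 and 15000 sorted E10.5 yolk sac EMPs, 1 of each (4 libraries in all). The authors used Bowtie2 (2.2.1) for alignment to mm10 and MACS2 (2.1.2) in broad mode, with the matching IgG library as control, and set p-value limits of 0.05 (15000 EMPs) and 0.01 (500 EMPs). In the study's command list these limits stand beside file names of the opposite cell number, and the peak lists were used as labelled. Gene assignments came from ChIPpeakAnno (3.20.1). The deposited files held peak starts and ends in bp and, in the annotated tables, a gene and a distance in bp, with no score, p-value or count. Depth was thus not measured here. Per the study's reporting summary, the library of 500 EMPs had fewer reads and a much lower alignment rate. IgG peaks were not used here.

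Starts were converted to 1-based positions, and the ends of the peak lists were used. Gene records came from GENCODE vM21 and sequence from the RefSeq copy of GRCm38.p6, on which 0 peaks ran past a chromosome end. Protein-coding genes of the mitochondrial genome and chromosome Y were left out, which left 21755. Neither peak list held a peak on chromosome Y. Overlap meant at least 1 bp. Intron numbers are those of the principal transcript. Scripts used Python version 3.11.15, pysam version 0.24.0 and scipy version 1.17.1 (95% Wilson intervals, counting error only), and the interval functions were tested on simulated data. Named genes were the 9 chosen genes, the listed pathway genes with a peak in both libraries and neighbours of a peak; other pathway genes are named as examples chosen after their values were seen. The genes and lists were chosen with earlier results of these data known. With 1 library per group no test was run. Alternatives were the distance limits, the peaks kept, joining within 3 kb, the overlap minimum, the start used and the window.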

Additional observations from a re-analysis of the deposited data

How the results depend on the processing

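Of 169 values recomputed for 61 results, 144 stayed near the value reported (counts and lengths within 1.5 times, shares within the 95% interval), of which 57 were 0 under both settings. None of these values can change sign. With peaks of 500 bp or more only, 1 of the 9 genes (Flt1) instead of 3 was marked with 500 EMPs, and Kdr dropped out with 15000 EMPs, leaving 5. With 500 EMPs these wider peaks also left 1 semaphorin, 1 signal transduction gene, 0 hypoxia genes and 6 of the 61 pathway genes in all, and with 15000 EMPs 1 hypoxia gene. Shares of all protein-coding genes were not computed for the wider peaks. Without the peaks of smallest width, 1 semaphorin remained with 500 EMPs. With the distance in the annotated table limited to 1 kb, 1 of the 9 genes (Flt1) was listed with 500 EMPs. Joining peaks within 3 kb put 1 start (Flt1) under a peak with 500 EMPs. Requiring an overlap of 50% of both peaks lowered the shared peaks to 16.7% with 500 EMPs and 7.69% with 15000 EMPs, and 50% of the 15000-EMP peak alone also gave 7.69%. With peaks joined, 50% of the 15000-EMP regions (3 of 6) were shared.

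In a window of 1 kb on either side of the start, coverage with 500 and 15000 EMPs was 315 and 1716 bp at Flt1, 0 and 897 bp at Flt4 and 0 and 990 bp at Nrp2, and with 15000 EMPs 0 bp at Nrp1 and at Pgf. With 10 kb on either side of the start, Pgf had 2549 bp. Counted in the gene and 50 kb around it, Flt1 had 10158 bp with 15000 EMPs, and Vegfb entered the marked genes with 2044 bp (500 EMPs) and 3812 bp (15000 EMPs). With 3 kb around the gene, Pgf had 146 bp with 15000 EMPs. Using principal transcript starts, an alternative chosen after seeing the data, 8 of 9 starts were CpG-rich.

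No paired analysis was possible because each cell number had 1 H3K27me3 library. The files give no signal at a gene, and the library of 500 EMPs was the shallower, so an unmarked gene was one without a call, not one shown to lack the mark.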
